A study of Mus musculus with 36 samples.

Results

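The 10 genes of hepcidin and iron handling described here were followed in mouse liver through 3 ways of inducing cholestasis, the arrest of bile flow. They form a given list of 10 among the 29546 gene IDs of the expression table: the hepcidin genes Hamp and Hamp2, Bmp6 and Id1 of the signal that controls hepcidin, the transferrin receptors Tfrc and Tfr2, transferrin itself (Trf), the iron exporter ferroportin (Slc40a1), and the ferritin chains Fth1 and Ftl1. They were picked by name, not by their values. All mice were C57BL/6, and each library came from whole liver of 1 group of 4. In the ligated groups, surgery closed the bile duct and livers were taken at day 7 (BDL7) or day 28 (BDL28), with sham surgery as the control (SHAM). In the cyclosporin groups, cyclosporin A at 15 mg per kg in olive oil was given by gavage for 7 days (CsA7) or 28 days (CsA28), with olive oil by gavage as the control (VEHICLE). In the DDC groups, the diet held 0.1% of the porphyrinogenic agent 3,5-diethoxycarbonyl-1,4-dihydrocollidine for 7 days (DDC7) or 28 days (DDC28), with a control diet as the control (CTLD). Control livers carry no day in the labels, so each model's 4 controls were set against both days, and the values for both days share them. Neither sex nor age of the mice is stated in the labels.

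Hepcidin is a peptide hormone that hepatocytes secrete. It binds ferroportin on cells that release iron, such as macrophages, enterocytes and hepatocytes, and causes its removal, so that less iron enters plasma. Its gene is switched on by bone morphogenetic proteins, chiefly BMP6 and BMP2 from sinusoidal endothelial cells, through SMAD proteins, and by interleukin 6 through STAT3; the protease matriptase-2, encoded by Tmprss6, restrains the BMP route. Ferritin, transferrin receptor 1 and ferroportin are also set after transcription by iron regulatory proteins, which bind a hairpin called the iron-responsive element in their mRNAs, and mRNA levels do not show that layer.

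The mouse carries a pair of neighbouring hepcidin genes, and their sequences are shown here as a description. No part of the sequences in the levels given below was tested. Hamp encodes the hormone; for Hamp2, work in transgenic mice found no such effect on iron. The stretches before the first transcribed base are given here from RefSeq (GRCm38.p6, minus strand), at chr7:30944033-30944279 for Hamp and chr7:30924182-30924431 for Hamp2, with capitals marking the letters GGCGCC of the BMP-responsive element, or the bases aligned with them, and the STAT-type letters TTCNNNGAA.
Hamp: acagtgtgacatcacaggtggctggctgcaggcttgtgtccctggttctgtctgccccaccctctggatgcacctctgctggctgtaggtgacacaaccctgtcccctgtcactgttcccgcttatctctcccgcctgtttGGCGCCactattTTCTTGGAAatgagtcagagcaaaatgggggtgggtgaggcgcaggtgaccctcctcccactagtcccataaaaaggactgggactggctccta
Hamp2: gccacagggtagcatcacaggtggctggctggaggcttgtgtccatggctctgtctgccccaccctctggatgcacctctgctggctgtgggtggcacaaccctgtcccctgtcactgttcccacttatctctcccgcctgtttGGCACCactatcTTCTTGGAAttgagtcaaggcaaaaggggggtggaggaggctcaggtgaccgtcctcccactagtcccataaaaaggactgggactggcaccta
Both windows were alike at 227 of 247 aligned bases (91.9%). GGCGCC stood at -106 in Hamp, counted from the first transcribed base. At the aligned place Hamp2 reads GGCACC, which is G4A with positions counted from 1 at the 5′ end of the motif and the base of Hamp first. TTCNNNGAA stood at -94 in both, as TTCTTGGAA. Searched on both strands in the 250 bases before the start of every gene window in the RefSeq table, GGCGCC was found in 9.59% of 32851 windows and TTCNNNGAA in 7.02%. These matches describe letters, not bound sites.

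The ends of both coding sequences, which encode the mature peptide, also differ, and that bears on whether reads can be told apart. Each coding sequence has 83 codons, and the last 25 codons are shown with the 14 differing bases in capitals.
Hamp: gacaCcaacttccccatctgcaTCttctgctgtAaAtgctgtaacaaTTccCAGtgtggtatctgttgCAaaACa
Hamp2: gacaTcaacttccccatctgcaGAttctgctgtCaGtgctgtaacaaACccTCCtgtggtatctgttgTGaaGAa
The libraries were made with a kit that reads mRNAs near their 3′ end. Of all 50-base windows of the Hamp transcript, 60 of 361 (16.6%) also occur in the Hamp2 transcript, and in the last 200 windows 3 do. How reads matching both genes were shared out was not tested, so small counts of Hamp2 stay less certain than those of Hamp.

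Values are the normalized read counts of the deposited table, given with library replicates 1 to 4 in order and as mean ± SD (n = 4). Levels are not compared between genes. Each library held 2081093 to 3770267 reads on genes (median 2826073), and all 10 genes passed the filter on low values. Hepatocyte marker genes summed to 57121 to 75833 normalized counts in the ligated libraries and 91736 to 101409 in SHAM, and to 60263 to 76916 in the DDC libraries and 103825 to 132308 in CTLD. In whole liver, fewer cells of a type and less RNA per cell cannot be told apart. Differences are log2 fold changes of the normalized count plus 1, from limma fitted over all 36 libraries, with standard errors and with p-values adjusted by Benjamini-Hochberg over 12596 genes within a comparison; a gene is said to have risen or fallen where the adjusted p was below 0.05.

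In BDL7, 5 of the 10 genes changed, 4 up and 1 down, in a comparison where 38.7% of all genes changed. In BDL28, 6 changed, 5 up and 1 down, against 46.8% of all genes. In CsA7, 1 changed, down, against 4.03% of all genes, and in CsA28 none did by limma (2 at an unadjusted p below 0.05, and 0 with edgeR or DESeq2), against 0.0238% of all genes. In DDC7, 5 changed, 3 up and 2 down, against 46.8%, and in DDC28, 4 changed, 3 up and 1 down, against 52.7%. The shares of the list in the ligation and DDC comparisons lie near those of all genes, so the counts alone say nothing particular about iron genes. The median log2 change over the 10 genes was 0.19 in BDL7, 0.32 in BDL28, -0.12 in CsA7, -0.12 in CsA28, 0.10 in DDC7 and 0.18 in DDC28, where the median of all genes lay between 0.00 and 0.04. By direction, 20.2% of all genes rose and 18.5% fell in BDL7, 24.1% and 22.7% in BDL28, 1.88% and 2.14% in CsA7, 24.7% and 22.1% in DDC7, and 27.9% and 24.7% in DDC28. The counts of pathway and marker lists below stand beside these shares, and a count near them is no result about the list.

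**Figure D1:**
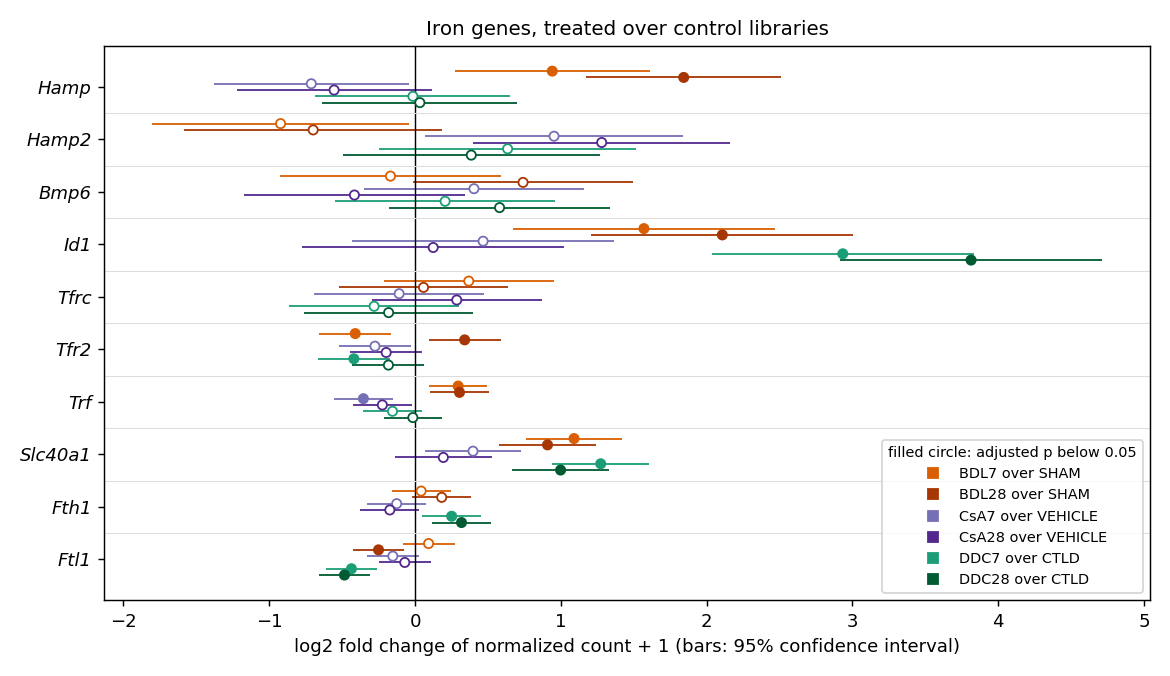
Log2 fold change of normalized count plus 1 for the 10 iron genes (horizontal axis) in each treated group over the control of its model, with 95% confidence intervals; filled circles have an adjusted p below 0.05. Slc40a1 and Id1 stand to the right of 0 in all 4 ligation and DDC comparisons, Hamp in the ligation comparisons, and of the cyclosporin circles Trf at day 7 alone is filled.

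The ligand came first in the order of the pathway, and no change in it was called by the main test. Bmp6 had 5.85, 11.2, 5.98 and 10.7 normalized counts in BDL7 and 23.6, 17.5, 9.29 and 17.1 in BDL28, against 9.63, 9.93, 10.5 and 7.12 in SHAM. The BDL28 values lay mostly above those of SHAM and overlapped them, with a log2 difference of 0.74 (limma adjusted p = 0.101). In DDC28 it averaged 19.5 ± 5.70, against 12.5 ± 2.28 in CTLD (log2 difference 0.58, limma adjusted p = 0.193). In DDC7 it averaged 14.6 ± 2.61 (0.21, limma adjusted p = 0.679). These values rest on 2 to 30 reads per library. The BDL28 value was called without BDL28 library 3 (0.98, limma adjusted p = 0.0411) and with libraries scaled to equal totals (0.98, limma adjusted p = 0.0303). Day 28 of ligation lay above day 7 by 0.91 (limma adjusted p = 0.061), which passed the threshold without BDL28 library 3 and with edgeR or DESeq2 on reads (adjusted p = 0.0382 and 0.0359). The markers of sinusoidal endothelium, the cells that make BMP6, summed to 484 to 812 normalized counts in BDL28 and 1109 to 1244 in SHAM, and 7 of the 9 markers fell, none being at 0 in any library; their part in the Bmp6 values was not tested. Bmp2, the other endothelial ligand, fell in BDL28, at 180 normalized counts on average against 289 in SHAM (log2 fold change -0.72 ± 0.13, limma adjusted p = 2.12e-05). It rose in DDC7, at 296 against 210 in CTLD (0.50 ± 0.13, limma adjusted p = 0.00183).

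Hamp rose after ligation at both days. It had 1204, 1318, 1938 and 889 normalized counts in BDL7 and 1416, 3568, 2739 and 2412 in BDL28, against 755, 594, 559.7 and 798 in SHAM. Every ligated library lay above every sham library, and BDL28 library 1 was the lowest of its group. The log2 fold change was 0.94 ± 0.33 in BDL7 (limma adjusted p = 0.0228) and 1.84 ± 0.33 in BDL28 (limma adjusted p = 3.58e-05). The day 28 value exceeded the day 7 value by 0.90 ± 0.33 (limma adjusted p = 0.036), one of 3 members called in a comparison of the days in which 30.7% of all genes were. That difference was lost without BDL7 library 1, 2 or 4 or BDL28 library 2, 3 or 4 (adjusted p up to 0.151). Leaving out BDL7 library 3, SHAM library 2 or SHAM library 3 ended the call in BDL7, with log2 values of 0.74, 0.88 and 0.86. The BDL28 value rested on no one library, and ranged from 1.65 to 2.10 on leaving out each in turn.

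The rise of Hamp was measured against an unusual control. The 4 sham livers held the lowest 4 Hamp values of all 36 libraries: the highest of them was 798 and the lowest elsewhere 889. Hamp averaged 677 ± 117 in SHAM, 3039.5 ± 457 in VEHICLE and 2125 ± 445 in CTLD, and differed among the 3 controls (limma F test, adjusted p = 5.66e-05), as 19.4% of all genes did. Set against CTLD, an alternative chosen after seeing the data, Hamp in BDL7 had a log2 difference of -0.70 (limma adjusted p = 0.0777) and in BDL28 of 0.20 (limma adjusted p = 0.625). Set against VEHICLE, the differences were -1.23 (limma adjusted p = 0.00272) in BDL7 and -0.33 (limma adjusted p = 0.422) in BDL28. Hamp was thus higher after ligation than in its own surgical control, and no ligated library exceeded the highest VEHICLE library.

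The levels of Hamp2 leaned the other way from those of its neighbour. It had 56.8, 49.8, 98.7 and 59.5 normalized counts in BDL7 and 61.0, 139.7, 69.6 and 52.5 in BDL28, against 94.95, 139, 188 and 88.9 in SHAM. Most ligated libraries lay below the sham range and 1 in each group lay inside it, and the log2 differences of -0.92 in BDL7 (limma adjusted p = 0.0928) and -0.70 in BDL28 (limma adjusted p = 0.189) missed the threshold. Their ratio within a library does not change with a single scaling factor per library. Hamp2 over Hamp was 0.0472, 0.0378, 0.0509 and 0.0670 in BDL7 and 0.0431, 0.0391, 0.0254 and 0.0218 in BDL28, against 0.126, 0.234, 0.336 and 0.111 in SHAM. All ligated values lay below all sham values, with log2 differences of -1.88 ± 0.41 in BDL7 and -2.55 ± 0.45 in BDL28. The exact 2-sided permutation p was 0.0286 in each, the smallest that 4 against 4 libraries allow, and 0.0686 after adjustment over the 12 ratio tests. Hamp is the denominator, so the low SHAM values of Hamp enter this ratio and its SHAM level is no separate observation. Hamp2 itself was not called among the controls (limma F test, adjusted p = 0.903). The ratio averaged 0.202 ± 0.105 in SHAM, 0.0532 ± 0.0304 in VEHICLE and 0.0555 ± 0.0120 in CTLD. No VEHICLE or CTLD library reached the lowest SHAM value. The BDL7 values lay among those of VEHICLE and CTLD, and the BDL28 values overlapped VEHICLE and lay below CTLD. In the other models the ratio leaned up, by 1.67 ± 0.60 in CsA7, 1.84 ± 0.87 in CsA28, 0.65 ± 0.30 in DDC7 and 0.35 ± 0.32 in DDC28, with overlap in each (exact 2-sided permutation p from 0.0571 to 0.371, adjusted 0.0980 to 0.446). This ratio was added after seeing the data.

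In the other models no change of either hepcidin gene was called. Hamp had 2312, 2252, 2057 and 1701 normalized counts in DDC7 and 1685, 1723, 2799.8 and 2558 in DDC28, against 1519, 2516, 2073 and 2392 in CTLD. The groups overlapped throughout, with log2 differences of -0.01 in DDC7 (95% confidence interval -0.68 to 0.65) and 0.03 in DDC28 (-0.64 to 0.70). Under cyclosporin it had 2097, 1018, 2892 and 1860.2 in CsA7 and 2661, 909, 2377 and 3084 in CsA28, against 3685, 2999.5, 2626 and 2848 in VEHICLE. Most cyclosporin libraries lay below the vehicle ones, yet both groups overlapped them, and the log2 differences of -0.71 in CsA7 (limma adjusted p = 0.243) and -0.55 in CsA28 (limma adjusted p = 0.614) missed the threshold. Hamp2 had 423, 163, 225 and 317 in CsA7 and 278, 552, 409 and 194 in CsA28, against 64.6, 117, 218 and 209 in VEHICLE. These leaned upward without passing (log2 differences 0.95 and 1.28, limma adjusted p = 0.234 and 0.296). In DDC livers Hamp2 had 222, 292, 109.6 and 139.5 in DDC7 and 65.2, 147, 257 and 201 in DDC28, against 112, 119.8, 104 and 121 in CTLD. Both overlapped CTLD (0.64 and 0.39, limma adjusted p = 0.234 and 0.471). The change of Hamp in BDL28 exceeded that in DDC28 by 1.81 ± 0.46 (limma adjusted p = 0.0132), in a test of the difference that 10.3% of all genes passed. Hamp averaged 2534 normalized counts in BDL28 and 2191 in DDC28, against 677 in SHAM and 2125 in CTLD. The difference of 1.81 thus takes in the gap between the controls.

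**Figure D2:**
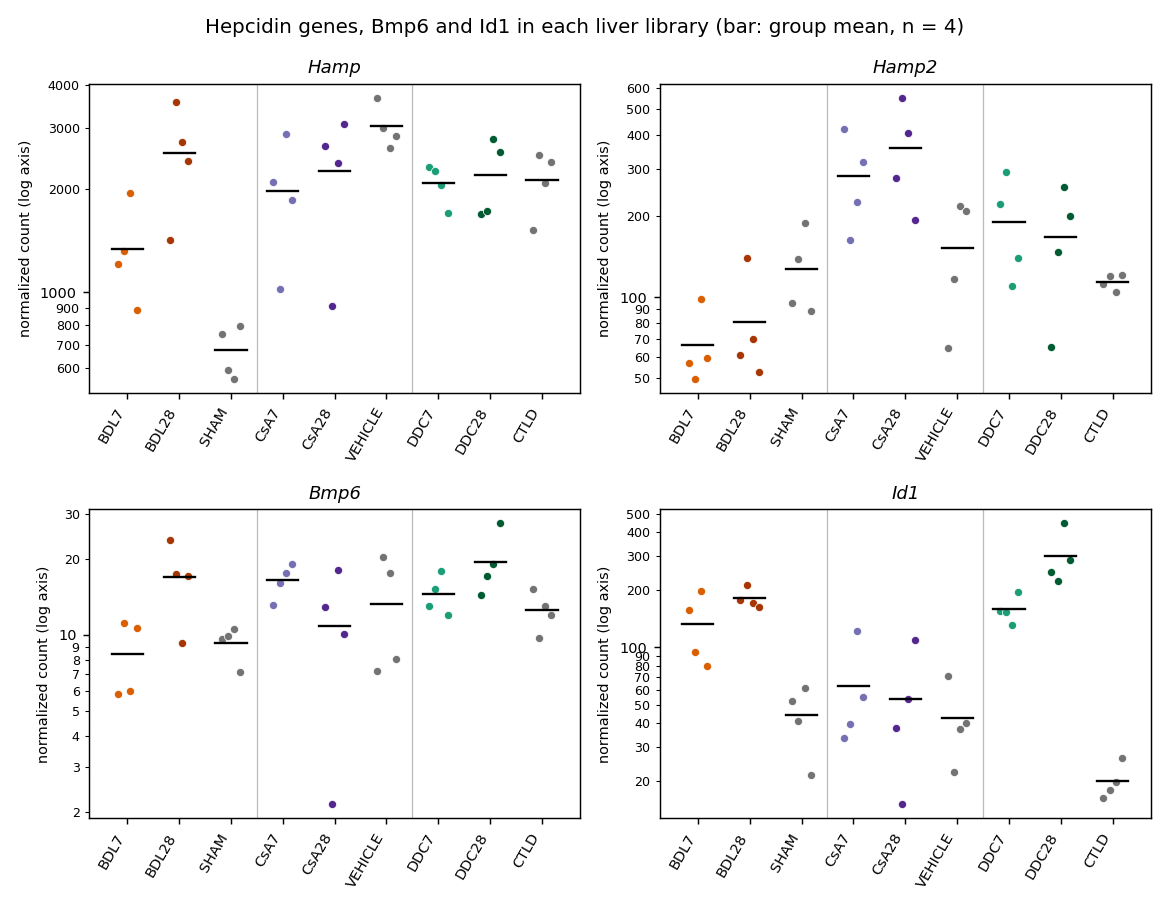
Normalized counts (log axis) of Hamp, Hamp2, Bmp6 and Id1 in each of the 36 libraries by group, with a bar at each group mean. The 4 SHAM points of Hamp are the lowest of all, at 559.7 to 798, and the Id1 points of BDL7, BDL28, DDC7 and DDC28 all lie above those of their controls.

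Id1, a transcriptional inhibitor that BMP signalling switches on through SMADs in hepatocytes and endothelial cells, rose in ligated and in DDC livers. It had 156, 94.6, 196 and 80.1 normalized counts in BDL7 and 177, 212, 171 and 163 in BDL28, against 52.3, 41.0, 61.0 and 21.3 in SHAM. In DDC livers it had 155, 153, 131 and 195 in DDC7 and 247, 221, 445 and 287 in DDC28, against 16.2, 17.8, 19.6 and 26.2 in CTLD. No treated library of either model overlapped its controls, and the DDC28 library with the highest value was replicate 3. The log2 fold changes were 1.57 ± 0.44 in BDL7 (limma adjusted p = 0.00527), 2.11 ± 0.44 in BDL28 (0.000255), 2.93 ± 0.44 in DDC7 (3.63e-06) and 3.81 ± 0.44 in DDC28 (3.1e-08). Under cyclosporin, Id1 averaged 62.4 ± 40.7 in CsA7 and 53.8 ± 40.2 in CsA28, against 42.6 ± 20.3 in VEHICLE, with full overlap (limma adjusted p = 0.653 and 0.961).

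Id1 and Hamp, both targets of the BMP route, rose in ligated liver over SHAM. In DDC liver Id1 rose over CTLD without a called change in Hamp. This contrast depends on the control, as Hamp averaged 677 normalized counts in SHAM and 2125 in CTLD. Set against CTLD, Hamp was called in neither ligated group. Of the 8 BMP and SMAD target genes listed, Hamp and Id1 included, 2 rose in BDL7, 4 in BDL28, 3 in DDC7 and 5 in DDC28, and none fell in these groups. Smad7, an inhibitory SMAD that feeds back on the pathway, averaged 79.2 normalized counts in BDL28 against 42.2 in SHAM (log2 fold change 0.92 ± 0.22, limma adjusted p = 0.000659), and 107 in DDC28 against 43.7 in CTLD (1.26 ± 0.22, limma adjusted p = 8.6e-06). Atoh8, a transcription factor induced by BMP signals, rose in BDL28 (0.84), DDC7 (1.16) and DDC28 (1.07). In CsA7 the one call was Id3, another inhibitor of the Id family, which fell to 251 against 703 in VEHICLE (-1.52 ± 0.36, limma adjusted p = 0.0134).

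**Figure D3:**
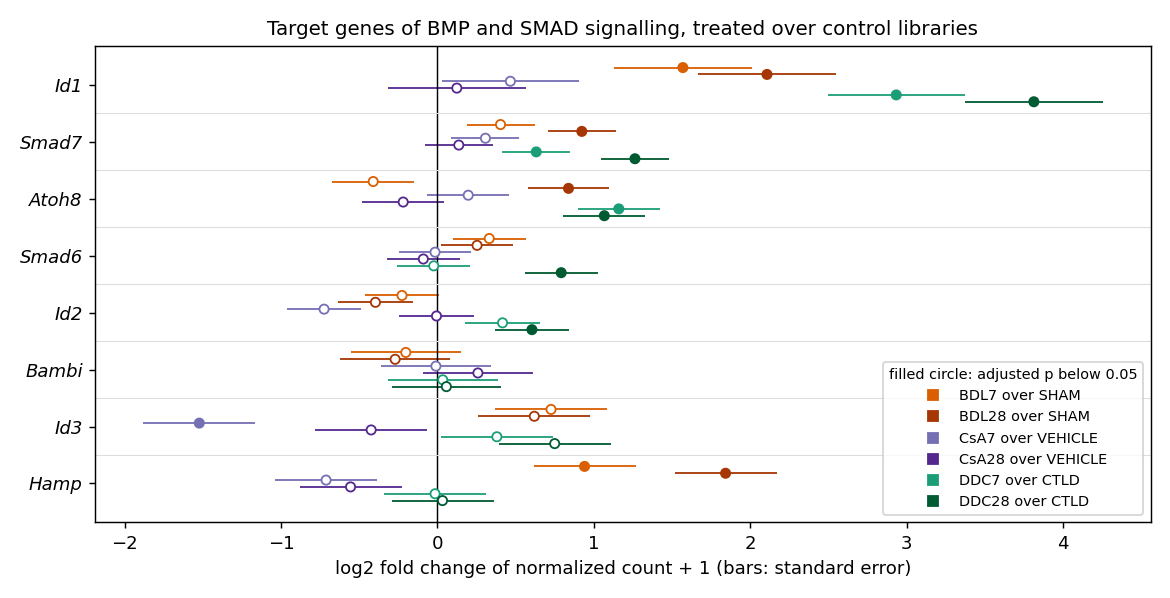
Log2 fold change of normalized count plus 1 for the 8 listed BMP and SMAD target genes in each treated group over its control, with standard errors; filled circles have an adjusted p below 0.05. In DDC28, Id1, Smad7, Atoh8, Smad6 and Id2 are filled and to the right of 0, while Hamp sits at 0.03.

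Genes that act on the BMP route upstream of hepcidin moved in both directions. Of 15 tested, Bmp6 and Tfr2 included, 1 rose and 4 fell in BDL7, 4 rose and 5 fell in BDL28, 3 rose and 4 fell in DDC7, and 4 rose and 3 fell in DDC28. Tmprss6 fell in all 4, to 242 normalized counts in BDL7 and 245 in BDL28, against 384 in SHAM, and to 263 in DDC7 and 245 in DDC28, against 478 in CTLD. Its log2 fold changes were -0.67, -0.67, -0.86 and -0.96, each ± 0.10 (limma adjusted p from 8.1e-10 to 2.36e-06). Acvr2a, a type II receptor for BMPs and activins, fell in BDL7 (-0.70), DDC7 (-0.67) and DDC28 (-0.76). Of 10 hepatocyte markers, 8 fell in BDL7, 6 in BDL28, 8 in DDC7 and 9 in DDC28 beside these genes, and their part was not tested.

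The inflammatory route to hepcidin was read through acute-phase genes, secreted proteins that interleukin 6 and STAT3 raise. Of 11 listed, 9 rose in BDL7 and 5 in BDL28, with none falling, while 2 rose and 2 fell in DDC7 and 3 rose and 2 fell in DDC28. Their summed level was 41375.5 to 44629 normalized counts in BDL7 and 23684 to 36732 in BDL28, against 22126.5 to 25224 in SHAM. Each BDL7 sum lay above every SHAM sum, and the part of this response in the Hamp values was not tested. Of 6 tested genes of the interleukin 6 and STAT3 signal, 0 rose and 1 fell in BDL7, and 1 rose and 0 fell in BDL28. In DDC7 and in DDC28, 2 rose and 1 fell. Il6 itself did not pass the filter. Stat3 rose in DDC7 (0.53 ± 0.14, limma adjusted p = 0.00187) and DDC28 (0.59 ± 0.14, limma adjusted p = 0.000492), and was not called in BDL7 (0.003, limma adjusted p = 0.991). Il6st, a receptor gene of the list, fell in DDC7 (-0.35 ± 0.13, limma adjusted p = 0.0252). Among the controls, VEHICLE libraries 1 and 2 had acute-phase sums of 65762 and 49068, against 20160 and 21736 in VEHICLE libraries 3 and 4. With both high vehicle libraries left out, added after seeing the data, none of the 10 genes was called in CsA7.

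Across libraries of 1 group, Hamp and Id1 varied together. After removal of group means, Pearson r was 0.597 over 36 libraries (permutation within groups, p = 0.00444, adjusted 0.0265 over 8 pairs) and Spearman rho 0.493 (permutation p = 0.00915, adjusted 0.0281), with a positive r in 7 of 9 groups. Without CsA7 library 2 and CsA28 library 2, the pair farthest from the median, r was 0.460 (permutation within groups, adjusted p = 0.0830), so the call rests on them. Those libraries had 1018 and 909 normalized counts of Hamp, the lowest of their groups. No relation of Hamp was detected with the acute-phase gene Saa1 (r = 0.083, permutation p = 0.566, adjusted 0.662), Bmp6 (r = 0.200, permutation p = 0.477, adjusted 0.662) or Hamp2 (r = 0.081, permutation p = 0.687, adjusted 0.687), nor of Bmp6 with Id1 (r = 0.174, permutation p = 0.579, adjusted 0.662). As a description, the genes whose levels over all 36 libraries were most like those of Hamp were Hoga1 (r = 0.826), Gnl2 (0.706) and Babam2 (0.702), and for Id1 they were Cd63 (0.896), Sat1 (0.886) and Plpp2 (0.883), among 6791 genes.

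Of the transport and storage genes, 4 carry the letters of the iron-responsive hairpin, and these sites are shown because Tfrc holds them at the opposite end of its mRNA from the other 3. A search for a C, 5 bases, CAGTG with A, C or T, and 5 bases pairing with the first 5, in the untranslated regions of GENCODE M21 transcripts (GRCm38), matched 97 of 21875 genes (0.443%). Among the 10 genes it matched the 3′ untranslated region of Tfrc (chromosome 16) at 4 places, and the 5′ untranslated regions of Fth1 (chromosome 19), Ftl1 (chromosome 7) and Slc40a1 (chromosome 1) at 1 place each, and no other. Capitals mark the loop.
Tfrc, site 1, nearest the coding end: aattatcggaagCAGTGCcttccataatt
Tfrc, site 2 from the coding end: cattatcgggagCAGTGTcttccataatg
Tfrc, site 3: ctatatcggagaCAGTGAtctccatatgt
Tfrc, site 4: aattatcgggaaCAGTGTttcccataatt
Fth1: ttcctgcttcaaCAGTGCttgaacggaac
Ftl1: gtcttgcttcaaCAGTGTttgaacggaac
Slc40a1: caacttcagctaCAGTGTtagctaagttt
In background knowledge, proteins bound at the 3′ sites stabilise the Tfrc mRNA when iron is low, so its mRNA level can move with cellular iron, whereas binding at a 5′ site blocks translation and leaves the mRNA level unread.

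Tfrc, which encodes transferrin receptor 1 for iron uptake, was called in no comparison. It had 261, 169, 179 and 211 normalized counts in BDL7 and 120.0, 147, 176 and 226 in BDL28, against 193, 144, 93.6 and 229 in SHAM. In DDC livers it had 177, 141, 118 and 99.2 in DDC7 and 103, 127, 152 and 193 in DDC28, against 118, 126, 259.7 and 165 in CTLD. The groups overlapped in every model, and the log2 differences lay between -0.28 (DDC7, limma adjusted p = 0.441) and 0.37 (BDL7, limma adjusted p = 0.328). Within groups it showed no relation past the threshold with Tfr2 (r = 0.287, permutation p = 0.126, adjusted 0.252), and with the cell cycle marker Mki67 r was -0.376 (permutation p = 0.0227, adjusted 0.0606) and rho -0.446 (permutation p = 0.0105, adjusted 0.0281). Over all libraries its level was most like those of Heatr1 (r = 0.683), Gda (0.672) and Tuba1c (0.649), as a description.

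Tfr2, the hepatocyte receptor that senses iron-loaded transferrin and feeds into hepcidin control, fell at day 7 in both models. It had 264, 295, 320.1 and 326 normalized counts in BDL7 and 336, 645, 563 and 536 in BDL28, against 381, 391, 423 and 403 in SHAM. All day 7 values lay below the sham range, and 3 of the 4 day 28 values lay above it. The log2 fold change was -0.41 ± 0.12 in BDL7 (limma adjusted p = 0.007) and 0.34 ± 0.12 in BDL28 (limma adjusted p = 0.0209). Day 28 exceeded day 7 by 0.75 ± 0.12 (limma adjusted p = 1.82e-05), with no overlap. The day 28 rise was lost on leaving out BDL28 library 2, 3 or 4 or SHAM library 1. In DDC livers Tfr2 had 285, 279.7, 303 and 305 in DDC7 and 304, 324, 359 and 402 in DDC28, against 359, 389, 416 and 407 in CTLD. It fell without overlap in DDC7 (-0.42 ± 0.12, limma adjusted p = 0.00489), and its log2 difference was -0.18 in DDC28 (limma adjusted p = 0.211). With libraries scaled to equal totals, which moved the median of all genes up to 0.33 in BDL7 and 0.38 in DDC7, the day 7 values of Tfr2 were -0.09 and -0.07 and no longer called. The ligation change at day 28 exceeded the DDC change by 0.52 ± 0.17 (limma adjusted p = 0.0463).

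Trf, the plasma iron carrier that hepatocytes secrete, rose modestly after ligation. It had 13091, 14542, 16471 and 13396 normalized counts in BDL7 and 12992, 13838, 14196 and 16885 in BDL28, against 13089, 11305, 11203 and 11155 in SHAM. SHAM library 1 stood near the ligated values and the other sham libraries below them all. The log2 fold changes were 0.30 ± 0.10 in BDL7 (limma adjusted p = 0.0167) and 0.31 ± 0.10 in BDL28 (limma adjusted p = 0.0113), lost without BDL7 library 3 and without BDL28 library 4. In CsA7, Trf had 10809, 9671, 9880.0 and 10403, against 16049, 12922, 11319 and 12217 in VEHICLE. These groups did not overlap, and Trf fell by 0.35 on the log2 scale (SE 0.10, limma adjusted p = 0.0333), a call lost without VEHICLE library 1 (-0.25, limma adjusted p = 0.164) and turned to 0.05 by quantile normalization. In DDC livers it averaged 11544 ± 1156 in DDC7 and 12689 ± 771 in DDC28, against 12842 ± 1195 in CTLD, and neither was called (limma adjusted p = 0.204 and 0.915), although quantile normalization gave called log2 values of 0.66 and 0.88. The day 7 change after ligation exceeded that in DDC7 by 0.45 ± 0.14 (limma adjusted p = 0.039), in a test that 8.46% of all genes passed.

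Slc40a1, the exporter that hepcidin removes from the cell surface, rose in ligated and in DDC livers at both days. It had 729, 788, 747 and 636 normalized counts in BDL7 and 652, 441, 797 and 718 in BDL28, against 345, 304, 378 and 332 in SHAM. In DDC livers it had 834, 779.9, 782 and 795 in DDC7 and 723, 667, 726 and 538 in DDC28, against 343, 379, 249 and 363 in CTLD. Every treated library lay above every control, with BDL28 library 2 the lowest of the treated. The log2 fold changes were 1.09 ± 0.16 in BDL7 (limma adjusted p = 2.35e-06), 0.91 ± 0.16 in BDL28 (2.54e-05), 1.27 ± 0.16 in DDC7 (1.16e-07) and 1.00 ± 0.16 in DDC28 (4.75e-06). Under cyclosporin it had 368, 349.8, 692 and 519 in CsA7, against 331, 331, 349 and 399.6 in VEHICLE, and CsA7 libraries 3 and 4 alone lay above the vehicle range (0.40, limma adjusted p = 0.176). In CsA28 it had 408, 367, 467 and 376, with libraries 1 and 3 above the vehicle range (0.19, limma adjusted p = 0.766).

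Macrophages are a main site of ferroportin in the liver, and most monocyte and macrophage markers rose over the controls in the same groups. Of 8 monocyte and macrophage markers, 8 rose in BDL7, 7 in BDL28, 7 in DDC7 and 7 in DDC28, and none fell. Their summed level was 1166 to 1690 normalized counts in BDL7 and 583 to 2014 in BDL28, against 277 to 370 in SHAM, and 1032 to 1488 in DDC7 and 1605 to 2382 in DDC28, against 270 to 369 in CTLD. Trem2, a marker of recruited macrophages, was at 0 in all 4 SHAM libraries and 2 CTLD libraries, and Gpnmb was at 0 in 8 of all 36 libraries. Of 7 Kupffer cell markers, 4 rose and none fell in BDL7, 2 rose and 3 fell in BDL28, 5 rose and 1 fell in DDC7, and 3 rose and 1 fell in DDC28. Kupffer sums were 2273 to 3244 in BDL7 and 1133 to 1781 in BDL28, against 1273 to 1456 in SHAM. They were 1792 to 3154 in DDC7 and 1568 to 2288 in DDC28, against 1397 to 1467 in CTLD. Every DDC28 monocyte and macrophage sum lay above every DDC7 sum, while Slc40a1 was lower in every DDC28 library than in every DDC7 library. The part of macrophage number in the Slc40a1 values was not tested.

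Cp, ceruloplasmin, the secreted oxidase that loads exported iron onto transferrin, rose beside Slc40a1. It averaged 8400 normalized counts in BDL7 and 8430 in BDL28, against 3147 in SHAM, and 5884 in DDC7 and 6939 in DDC28, against 3578 in CTLD. The log2 fold changes were 1.41, 1.41, 0.72 and 0.96, each ± 0.12 (limma adjusted p from 5.79e-12 to 6.71e-06). In CsA7, Cp had 3359, 3335, 3654 and 3484, against 6666, 5679.8, 3596 and 3919.5 in VEHICLE. VEHICLE libraries 1 and 2, the ones high in acute-phase genes, stood above the rest, and the fall (-0.48 ± 0.12, limma adjusted p = 0.0163) was lost without them (-0.12, limma adjusted p = 0.619), a setting added after seeing the data. Cp is an acute-phase gene too.

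**Figure D4:**
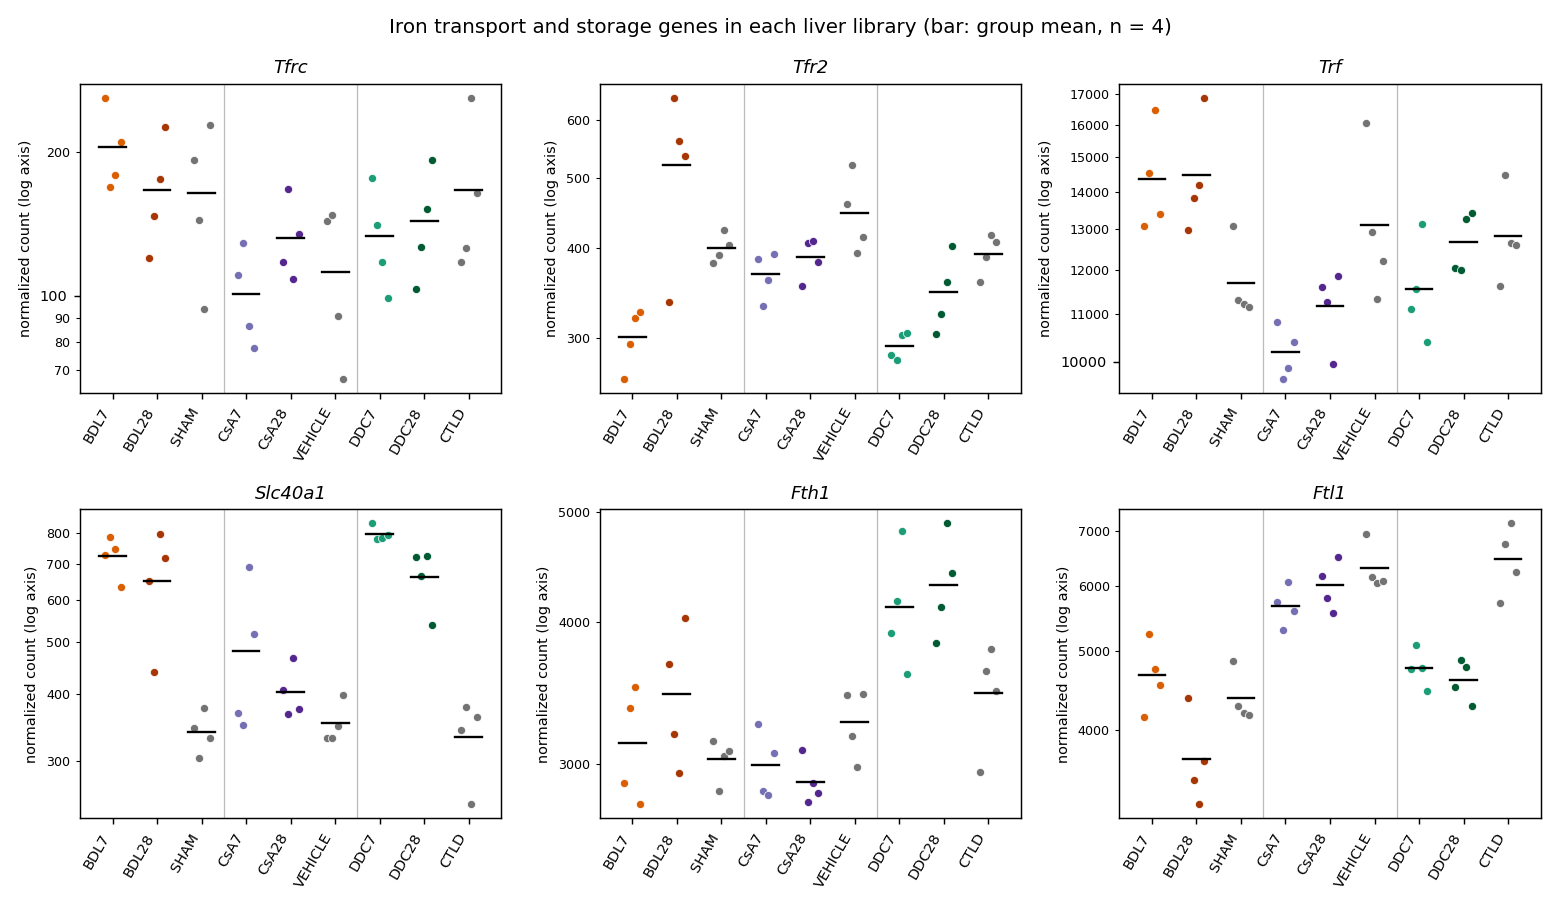
Normalized counts (log axis) of Tfrc, Tfr2, Trf, Slc40a1, Fth1 and Ftl1 in each of the 36 libraries by group, with a bar at each group mean. The 16 ligated and DDC libraries of Slc40a1 lie at 441 to 834, above the 8 SHAM and CTLD libraries at 249 to 379, while the Tfrc groups overlap.

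The ferritin chains, which together form the shell that stores iron, moved apart in DDC liver. Fth1, the heavy chain with ferroxidase activity, had 3912, 4178, 4814 and 3604 normalized counts in DDC7 and 3835, 4124, 4889.8 and 4424 in DDC28, against 2954, 3627, 3792 and 3477 in CTLD. It rose in DDC7 (0.25 ± 0.10, limma adjusted p = 0.0373), with 1 library inside the control range, and in DDC28 (0.32 ± 0.10, limma adjusted p = 0.00737), with none. The DDC7 call was lost without DDC7 library 2 or 3 or CTLD library 1 or 4. Ftl1, the light chain, had 4756, 5081, 4768 and 4460.4 in DDC7 and 4521, 4878, 4771 and 4277 in DDC28, against 5714, 6749.6, 7148 and 6244 in CTLD. It fell in both without overlap (-0.44 ± 0.09, limma adjusted p = 0.00011, and -0.48 ± 0.09, limma adjusted p = 1.92e-05), though quantile normalization turned these values to 0.39 and 0.36.

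After ligation, Fth1 averaged 3131 ± 361 in BDL7 and 3461 ± 487 in BDL28, against 3028 ± 133 in SHAM, and neither was called (limma adjusted p = 0.782 and 0.132), although scaling to equal totals gave called values of 0.37 and 0.45. Ftl1 had 4157, 5244, 4754 and 4543 in BDL7 and 4379, 3478, 3250.2 and 3669.8 in BDL28, against 4854, 4277, 4198 and 4174 in SHAM. It fell in BDL28 (-0.25 ± 0.09, limma adjusted p = 0.0185, but 0.33 with quantile normalization), with BDL28 library 1 inside the sham range, and the call was lost without BDL28 library 3 or SHAM library 1. Day 28 lay below day 7 by -0.34 ± 0.09 (limma adjusted p = 0.00301). At day 7 the ligation change of Ftl1 exceeded the DDC change by 0.53 ± 0.12 (limma adjusted p = 0.00629). The treated groups averaged 4675 normalized counts in BDL7 and 4766 in DDC7, so that difference takes in the gap between SHAM and CTLD. Ftl1 differed among the controls (limma F test, adjusted p = 1.53e-05), at 4376 ± 322 in SHAM, 6305 ± 423 in VEHICLE and 6464 ± 622 in CTLD.

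The separate ferritin directions depend on scaling, and their ratio does not change with a single scaling factor per library. Quantile normalization is no such factor, and the ratio is not given under it. With libraries scaled to equal totals, the median of all genes moved up to 0.33 in BDL7, 0.29 in BDL28, 0.38 in DDC7 and 0.39 in DDC28. The Ftl1 log2 differences became -0.09 in DDC7, -0.12 in DDC28 and 0.01 in BDL28. That scaling raised the share of called genes that were higher to 82.2% in DDC7 and 78.5% in DDC28, against 52.8% and 53.0% as deposited, and to 84.2% in BDL7 and 74.3% in BDL28, against 52.3% and 51.5%. Fth1 over Ftl1 was 0.823, 0.822, 1.01 and 0.808 in DDC7 and 0.848, 0.845, 1.02 and 1.03 in DDC28, against 0.517, 0.537, 0.530 and 0.557 in CTLD. It was 0.839, 0.917, 0.906 and 1.099 in BDL28 and 0.671 ± 0.0574 in BDL7, against 0.694 ± 0.0446 in SHAM. BDL28, DDC7 and DDC28 lay wholly above their controls, with log2 differences of 0.43 ± 0.09, 0.69 ± 0.08 and 0.80 ± 0.08, and BDL7 overlapped SHAM (-0.05, exact 2-sided permutation p = 0.514). Each exact 2-sided permutation p of the separated groups was 0.0286, the smallest the design allows, and 0.0686 after adjustment over the 12 ratio tests. Ftl1 is the denominator here, and its lower SHAM level enters the ratio, at 0.648 to 0.738 in SHAM, against 0.493 to 0.569 in VEHICLE and 0.517 to 0.557 in CTLD. BDL7, at 0.608 to 0.738, lay above all VEHICLE and CTLD libraries. The 3′ end of Ftl1 is shared with the pseudogene Ftl1-ps1, with 112 of the last 200 windows of 50 bases in common, so its counts may hold reads of both. Within groups the chains varied together (Pearson r = 0.540, permutation p = 0.00662, adjusted 0.0265, and rho 0.594, permutation p = 0.00148, adjusted 0.0118), with a positive r in 9 of 9 groups and 0.434 without BDL28 library 3 and CTLD library 1 (permutation within groups, adjusted p = 0.0924), on which the call rests.

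**Figure D5:**
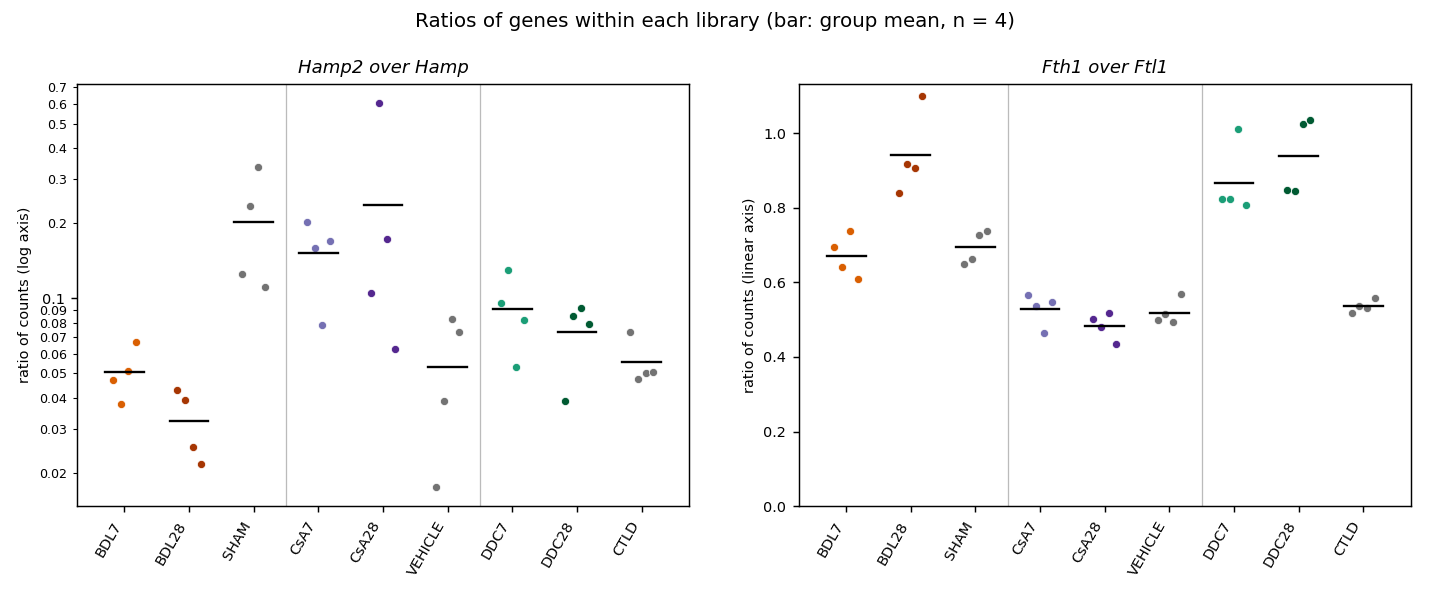
Ratio of Hamp2 to Hamp (log axis) and of Fth1 to Ftl1 (linear axis from 0) within each of the 36 libraries by group, with a bar at each group mean. The ligated libraries lie below the 4 SHAM libraries in Hamp2 over Hamp, and BDL28, DDC7 and DDC28 lie above their controls in Fth1 over Ftl1.

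Other genes around the iron pool were counted by their lists. Of 7 genes of heme and hemoglobin iron, 5 rose in BDL7, 5 in BDL28 and 5 in DDC28 with none falling, and 3 rose and 1 fell in DDC7. Hp and Hpx of this list also stand in the acute-phase list counted above, so these lists are not separate. Hmox1, the heme oxygenase that frees iron from heme, averaged 292 normalized counts in BDL7 and 297 in BDL28, against 96.5 in SHAM, and 489 in DDC7 and 437 in DDC28, against 89.5 in CTLD. The log2 fold changes were 1.60, 1.63, 2.44 and 2.27, each ± 0.27 (limma adjusted p from 1.46e-08 to 1.89e-05). Slc48a1, a heme transporter of lysosomes, rose in BDL7 (0.69), DDC7 (1.23) and DDC28 (1.22). Hmox1, Fth1 and Ftl1 are also known targets of the stress factor NRF2. Of 11 NRF2 targets, these 3 included, 7 rose and 1 fell in BDL7, 7 rose and 2 fell in BDL28, 8 rose and 1 fell in DDC7 and 8 rose and 1 fell in DDC28. The 1 that fell in DDC7 and in DDC28 was Ftl1, while Hmox1 and Fth1 were among those that rose.

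In the iron regulatory protein system, Ireb2, which encodes IRP2, fell in BDL7 (-0.66 ± 0.10, limma adjusted p = 4.42e-06) and BDL28 (-0.57 ± 0.10, limma adjusted p = 2.79e-05). Aco1, which encodes IRP1, fell in BDL7 (-0.34), BDL28 (-0.29) and DDC28 (-0.27), each ± 0.09 (limma adjusted p = 0.00402, 0.0115 and 0.0146). Fbxl5, the ubiquitin ligase subunit that degrades IRP2 when iron is present, rose in BDL7 (0.36), BDL28 (0.32), DDC7 (0.72) and DDC28 (0.96), each ± 0.13 (limma adjusted p from 9.92e-08 to 0.0355). Among 10 uptake genes, 3 rose and 2 fell in BDL7, 3 rose and 1 fell in BDL28, 2 fell in CsA7, 3 rose and 2 fell in DDC7, and 1 rose and 2 fell in DDC28. Slc39a8, a metal transporter, fell in all 4 ligation and DDC groups (-0.59, -0.73, -0.49 and -0.54), and Slc11a2, the divalent metal transporter DMT1, fell in CsA7 to 76.0 normalized counts, against 135 in VEHICLE (-0.78 ± 0.15, limma adjusted p = 0.00104). Among 8 mitochondrial iron genes, 5 fell in BDL7, 3 fell in BDL28, 2 fell in DDC7, and 1 rose and 2 fell in DDC28.

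Under cyclosporin the other members were not called. Tfr2 averaged 368 ± 27.0 in CsA7 and 388 ± 25.1 in CsA28, against 447 ± 55.9 in VEHICLE, and every CsA7 library lay below every VEHICLE library (-0.27, limma adjusted p = 0.216, and -0.20, limma adjusted p = 0.638). Tfrc averaged 101 ± 23.2 in CsA7 and 132 ± 25.95 in CsA28, against 112 ± 39.9 in VEHICLE. Trf averaged 11167 ± 849 in CsA28 (-0.22, limma adjusted p = 0.469). Fth1 averaged 2993 ± 206 in CsA7 and 2894 ± 135 in CsA28, against 3266 ± 231 in VEHICLE. Ftl1 averaged 5671 ± 316 in CsA7 and 6007 ± 417 in CsA28, against 6305 ± 423 in VEHICLE. Bmp6 averaged 16.5 ± 2.53 in CsA7 and 10.8 ± 6.66 in CsA28, against 13.3 ± 6.65 in VEHICLE, and the limma adjusted p-values of these 3 genes and Tfrc lay between 0.381 and 0.903.

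Between the days, calls among the 10 genes came in the ligation model alone, with 3 called where 30.7% of all genes were. This count and those below lie near the shares of all genes, so they are no result about the list. By limma, 0 of the 10 genes were called between CsA28 and CsA7 (1 at an unadjusted p below 0.05, and 0 with edgeR or DESeq2), where 2.45% of all genes were, and 0 between DDC28 and DDC7 (0 at an unadjusted p below 0.05, and 0 with edgeR or DESeq2), where 5.7% were. Id1 was higher in every DDC28 library than in every DDC7 library, with a log2 difference of 0.88 (limma adjusted p = 0.275). Slc40a1 was lower in every DDC28 library than in every DDC7 library (-0.28, limma adjusted p = 0.375). Uncalled members of the ligation model differed between day 28 and day 7 by -0.31 (Tfrc) to 0.91 (Bmp6).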

How the data were processed

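Liver RNA was sequenced near the 3′ end of mRNAs (QuantSeq 3′ mRNA FWD kit with the UMI module, per the labels' protocols), in 36 libraries of 9 groups of 4. Per the submitters' processing notes, the tools were STAR 2.7.9a, RSEM 1.3.1, DESeq2, UMI-tools 1.1.1 and Trim Galore, and the build GRCm39. The authors deposited 1 table of normalized counts (a signal scale, gene counts divided by a size factor per library). Every value was a whole multiple of 1 read within 0.001 in all 36 libraries (100%), so whole reads were recovered for count models. Whether the mice of a group were housed or treated apart is not given in the sources used here, and p-values measure the spread between libraries.

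Of 29546 gene IDs, 29121 had a symbol. Genes with at least 10 normalized counts in 4 libraries were kept (12596). limma 3.58.1 (R 4.3.3, trend and robust) was fitted to log2 of the normalized count plus 1, with 1 mean per group, 2-sided, and Benjamini-Hochberg adjustment with a threshold of 0.05. Alternatives were total-count, quantile and TMM scaling, other pseudocounts and filters, each pair of groups alone, leaving out each library, a replicate block, and edgeR 4.0.16 and DESeq2 1.42.0 on recovered reads; the limma code was tested on simulated data. Ratios were tested by exact permutation, and relations by 100000 permutations within groups. All 10 genes were tested in every comparison and their values are given against the controls, with day and model differences given for those called and a few others. Further genes were drawn from those with the 2 lowest adjusted p-values of a list in a comparison, and a few more were named after their values were seen. The 10 genes and all lists were chosen with earlier results of these data known. Promoter letters and transcripts are of GRCm38 and carry no coordinates of the files' GRCm39. Intervals cover the spread between libraries, and how reads of near-identical copies were shared is not given in the sources used here.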

Additional observations from a re-analysis of the deposited data

Results flagged for a closer look

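Within groups of 4, a gap test (Dixon, at its 95% critical value) over 90 sets of values found a library far from the others in 3, where chance gives about 5% of sets. The highest SHAM value of Trf was 13089, with the next at 11305, and the highest SHAM value of Ftl1 was 4854, with the next at 4277; both belong to SHAM library 1. The highest VEHICLE value of Ftl1 was 6935, with the next at 6158, in VEHICLE library 1, which also had the highest acute-phase sum.

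Effects that differed between days or models by a test of the difference itself, with limma, were these. Between day 28 and day 7 of ligation, the log2 difference was 0.90 for Hamp (adjusted p = 0.036), 0.75 for Tfr2 (adjusted p = 1.82e-05) and -0.34 for Ftl1 (adjusted p = 0.00301). The Hamp difference was lost without any one of 6 libraries, BDL7 1, 2 or 4 or BDL28 2, 3 or 4, where its adjusted p was 0.0597 to 0.151. Ligation minus DDC effects differed at day 7 by 0.45 for Trf (adjusted p = 0.039) and 0.53 for Ftl1 (adjusted p = 0.00629), and at day 28 by 1.81 for Hamp (adjusted p = 0.0132) and 0.52 for Tfr2 (adjusted p = 0.0463). The Hamp difference at day 28 kept its call in every alternative run. It takes in the gap between the controls. Hamp averaged 2534 normalized counts in BDL28 and 2191 in DDC28, against 677 in SHAM and 2125 in CTLD. The Ftl1 difference at day 7 takes in such a gap too. Ftl1 averaged 4675 in BDL7 and 4766 in DDC7, against 4376 in SHAM and 6464 in CTLD. The Trf and Tfr2 differences were lost in most of the settings that leave out 1 library.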

How the results depend on the processing

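Of 21 called effects, 10 kept direction and call in every alternative: Slc40a1 and Id1 in the 4 ligation and DDC groups, Hamp in BDL28 (its own control kept) and Fth1 in DDC28. For Hamp in BDL7, leaving out 1 library gave log2 values of 0.74 to 1.12; in BDL28, 1.65 to 2.10; in CsA7, -0.93 to -0.43; in CsA28, -0.75 to -0.16; in DDC7, -0.17 to 0.079; in DDC28, -0.12 to 0.15. In DDC7, Hamp was 0.33 with total-count scaling, 0.52 with quantile normalization and 0.032 summed with Hamp2, none called. With CTLD in place of SHAM (chosen after seeing the data), Hamp was -0.70 in BDL7 and 0.20 in BDL28 and Ftl1 -0.47 in BDL7; with VEHICLE, -1.23, -0.33 and -0.43. Leaving out 1 library gave 3 to 5 called members in BDL7, 4 to 6 in BDL28, 0 to 1 in CsA7 and 4 to 5 in DDC7. Fitting only the groups compared gave 3 in BDL28. In CsA7 the count was 0 with total-count scaling, quantile normalization, TMM scaling, no filter, only the groups compared, and without both high vehicle libraries (added after seeing the data). Total-count scaling gave Ftl1 0.013 in BDL28 and Trf 0.19 in DDC7 and 0.35 in DDC28; quantile normalization gave Ftl1 0.33 in BDL28, 0.39 in DDC7 and 0.36 in DDC28, and Trf 0.050 in CsA7, 0.66 in DDC7 and 0.88 in DDC28. The cause was not tested, beyond the shift of the median of all genes given above. Called genes in CsA28 numbered 3, against 71 with DESeq2, 10 with total-count scaling and 0 with quantile normalization, and in CsA7 507, against 839 with total-count scaling and 259 with only the groups compared. The replicate numbers 1 to 4 used here showed no clear pairing of libraries (correlations -0.13 to 0.15). The best match had the same number 3 times for DDC28 against CTLD, and 0 to 2 times in the other comparisons. For DDC28 against CTLD the correlations were 0.017 to 0.054. Sample titles follow a different numbering, so a pairing of mice by title was not tested and stays possible. The replicate block gave 4879 called genes in BDL7, against 4876, and changed no member's effect call; the Trf difference between ligation and DDC at day 7 had an adjusted p of 0.0511 under it. Precision is lowest for Bmp6, at 2 to 30 reads per library.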

Other observations

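Alas2, the erythroid enzyme that begins heme synthesis, fell in ligated and DDC livers. It averaged 54.4 normalized counts in BDL7 and 22.2 in BDL28, against 244 in SHAM, and 45.1 in DDC7 and 30.6 in DDC28, against 265 in CTLD. The log2 fold changes were -2.16, -3.50, -2.60 and -3.12, each ± 0.23, with limma adjusted p-values under the threshold of 0.05 in all 4. Of the 6 erythroid genes tested it was singled out after its values were seen. The 4 hemoglobin genes had log2 differences of 0.50 to 0.84 in BDL7 and -0.18 to -0.03 in BDL28, none called. In DDC7 they lay at -1.22 to -1.14 with 3 called, and in DDC28 at -0.40 to -0.09 with none called. Klf1, an erythroid transcription factor, rose in BDL28 (1.69 ± 0.54, limma adjusted p = 0.00995). It averaged 20.4 normalized counts in BDL28, against 4.93 in SHAM, and 2.43 in BDL7, where it was not called. Such low counts make the Klf1 value less certain. Its means in SHAM, BDL7, DDC7 (3.46), CTLD (6.18), CsA7 (7.87) and CsA28 (7.51) lay below the 10 normalized counts of the filter. Klf1 may thus have passed the filter mainly through the BDL28 libraries, so its call there is a description only. Which libraries carried it past the filter was not tested.

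BDL28 library 1 stood apart from the other BDL28 libraries, with the lowest Hamp (1416) and Tfr2 (336) of its group and the highest Ftl1 (4379). Its monocyte and macrophage marker sum was 2014 and its cholangiocyte marker sum 2836, each the highest of the group.

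CsA28 library 2 had the lowest Hamp (909), Id1 (15.0) and Bmp6 (2.15) of its group and the highest Hamp2 (552).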
